A study of Rattus norvegicus with 6 samples.

Results

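The miR-379 to miR-410 cluster is a dense run of miRNA genes on rat chromosome 6, in the imprinted Dlk1-Dio3 region. Its members were chosen by name, without use of any measured value. They are the rows of the deposited count table whose miRNA carries 1 of 34 stem names, from miR-379 at the near end to miR-410 at the far end, with either arm. Every one of the 34 stems had a row, which gave 62 members of 650 miRNAs in the table. Of these, 29 are named as 5p arms, 30 as 3p arms and 3 carry no arm in their name (miR-409b, miR-495 and miR-668). All 62 matched a RefSeq entry by name with an identical sequence. In the assembly GRCr8 their hairpins lie within chr6:134543445-134579838, a stretch of 36.4 kb, with 60 of the mature sequences on the plus strand. The other 2, miR-299b-5p and miR-409b, lie on the minus strand. RefSeq gives these positions, while the submitters' processing notes name the older build rn6.

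In the Dlk1-Dio3 region the copy inherited from the mother is transcribed into long noncoding RNAs, and this cluster is processed from one of them, Mirg. A hairpin cut from the transcript can yield a mature miRNA from its 5p arm, its 3p arm or both, and bases 2 to 8 of the mature miRNA, the seed, pair with target mRNAs. The cluster is specific to placental mammals and is known chiefly from brain and other neural tissue. There its transcription responds to neuronal activity, and miR-134, one of its members, limits the growth of dendritic spines.

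The trigeminal ganglion contains the sensory neurons that innervate the face, together with their satellite and Schwann cells. Ganglia were taken from Sprague-Dawley rats of 8 to 10 weeks, from the operated side, 14 days after surgery. In the CCI-ION group (chronic constriction injury of the infraorbital nerve, a model of trigeminal neuropathic pain) loose silk ligatures were tied around the nerve, and in the sham group the nerve was only exposed. Each group has 3 libraries, numbered 1 to 3. The labels do not say outright that each library comes from a separate rat, so the p-values describe variation among libraries, part of which may be technical. Where 3 values are given for a group, they follow the library numbers 1 to 3. Library totals were 6420434 to 12560545 miRNA counts. By these totals alone, a floor of 3 counts stands for 0.239 to 0.467 CPM (counts scaled to a common library size). The levels below are also scaled by TMM factors, so on their scale the floor shifts slightly. The miRNAs that mark sensory neurons (miR-183, miR-96 and miR-182) held 3.73% to 4.42% of the counts in sham and 3.66% to 4.41% in CCI-ION libraries. In bulk tissue such as this, fewer cells of a type and less RNA per cell cannot be told apart.

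The first sequences shown are those of the 8 members that differed between the groups when the library number was included in the model, since the main comparison turns on them. They run 5′ to 3′ in the order of the hairpins along the chromosome, as the deposited table lists them (T stands for U), and capitals mark the seed.
miR-323-3p: cACATTACacggtcgacctct
miR-758-3p: tTTGTGACctggtccactaacc
miR-494-3p: tGAAACATacacgggaaacctct
miR-376b-5p: gTGGATATtccttctatggtta
miR-668: tGTCACTCggctcggcccactacc
miR-541-5p: aAGGGATTctgatgttggtcacact
miR-409b: aGGGGTTCaccgagcaacattcg
miR-412-3p: cTTCACCTggtccactagccgt

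No 2 of the 7 higher ones share a seed, so with respect to the seed these are 7 different miRNAs. The eighth, miR-376b-5p, has the seed of miR-376c-5p. Over all 62 members there were 57 distinct seeds, and only 9 members had the seed of another member. These 4 groups are shown because their members would be read as one family by their seeds.
miR-299a-5p: tGGTTTACcgtcccacatacat
miR-299b-5p: cGGTTTACcgtcccacatac
miR-376b-5p: gTGGATATtccttctatggtta
miR-376c-5p: gTGGATATtccttctatgttt
miR-381-3p: tATACAAGggcaagctct
miR-539-3p: cATACAAGggtaatttcttttc
miR-494-5p: aGGTTGTCcgtgttgtcttctc
miR-496-5p: aGGTTGTCcatggtgtgttc
miR-410-5p: aGGTTGTCtgtgatgagttcg

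In each of these 4 groups only 1 member had enough counts for a test, namely miR-299a-5p, miR-376b-5p, miR-539-3p and miR-410-5p. Outside the cluster, 4 listed miRNAs have a member's seed: miR-362-3p that of miR-329-3p, miR-370-5p that of miR-1193-3p, miR-672-5p that of miR-377-5p and miR-344b-1-3p that of miR-410-3p. Likeness without identity also occurred. Among the 3p arms, 11 pairs of members had seeds that differ at 1 base. The 5p arms held such pairs too, for example miR-379-5p with miR-411-5p and miR-329-5p with miR-377-5p, but they were not counted. The letters GGTCCAC stood in 5 members, all 3p arms (miR-379-3p, miR-380-3p, miR-411-3p, miR-412-3p and miR-758-3p), and in no other row, which is 0.769% of all 650 rows. The reverse complement of these letters stood in 0 members and in 2 rows of the table. This motif was picked after the sequences had been read.

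The cluster was plainly present in the ganglion, and a few members supplied most of it. Of the 62 members, 52 passed the filter on low counts and were tested, among 463 tested miRNAs in all. Their mean levels ran from 1.67 to 3376 CPM, with a median of 54.5 CPM against 36.8 CPM over all tested miRNAs. In all, 20 members exceeded 100 CPM, 41 exceeded 10 CPM and 9 stood among the 100 most abundant miRNAs of the table. CPM counts reads of the molecules that were captured, so an order of levels between miRNAs is an order of read counts. The 10 members left out are miR-299b-5p, miR-494-5p, miR-1193-5p, miR-376c-5p, miR-376a-3p, miR-300-5p, miR-381-5p, miR-381-3p, miR-544-3p and miR-496-5p. None of these 10 had more than 14 counts or 1.05 CPM in any library.

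The most abundant member was miR-379-5p, the first miRNA of the cluster, which ranked number 40 in the table and held 25.5% of all cluster counts. Its level was 2983, 3459 and 3317 CPM in sham and 3313, 3202 and 3984 CPM in CCI-ION. The groups overlapped, with 2 of the 3 CCI-ION libraries inside the sham range. Next came miR-541-5p (mean of 1046 CPM over all 6 libraries), miR-300-3p (1031 CPM), miR-409b (968 CPM) and miR-323-3p (900.2 CPM). The order of these 4 differs between single libraries. With miR-379-5p these 5 held 55.3% of the cluster counts. The next 7, miR-411-5p (863 CPM), miR-382-5p (799.6 CPM), miR-134-5p (499 CPM), miR-409a-5p (462 CPM), miR-329-5p (429.04 CPM), miR-379-3p (408 CPM) and miR-495 (341.4 CPM), brought the share to 84.3%.

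Abundant members lay at both ends of the cluster and in its middle, and scarce ones lay beside them. miR-300-3p, with a mean of 1031 CPM, is flanked by the hairpins of miR-376a and miR-381. The arms of miR-376a had means of 2.23 and 0.64 CPM, and those of miR-381 had means of 0.0618 and 0.137 CPM. miR-381-3p, as listed with 18 bases, differs from the first 18 bases of miR-300-3p at 1 base, and the counts of these rows are uncertain for that reason. Rows with like sequences are also uncertain for miR-379-3p with miR-411-3p, miR-299a-5p with miR-299b-5p and miR-376b-5p with miR-376c-5p. Members listed with at most 20 bases were scarce. The 7 such rows had a median of 0.342 CPM and at most 18.7 CPM, whereas the 55 longer rows had a median of 45.5 CPM. The same held across the table, with a median of 0.129 CPM in 50 rows of at most 20 bases and 13.8 CPM in 600 longer rows. The handling of reads longer than the listed sequence is a step not given in the sources used here.

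**Figure D1:**
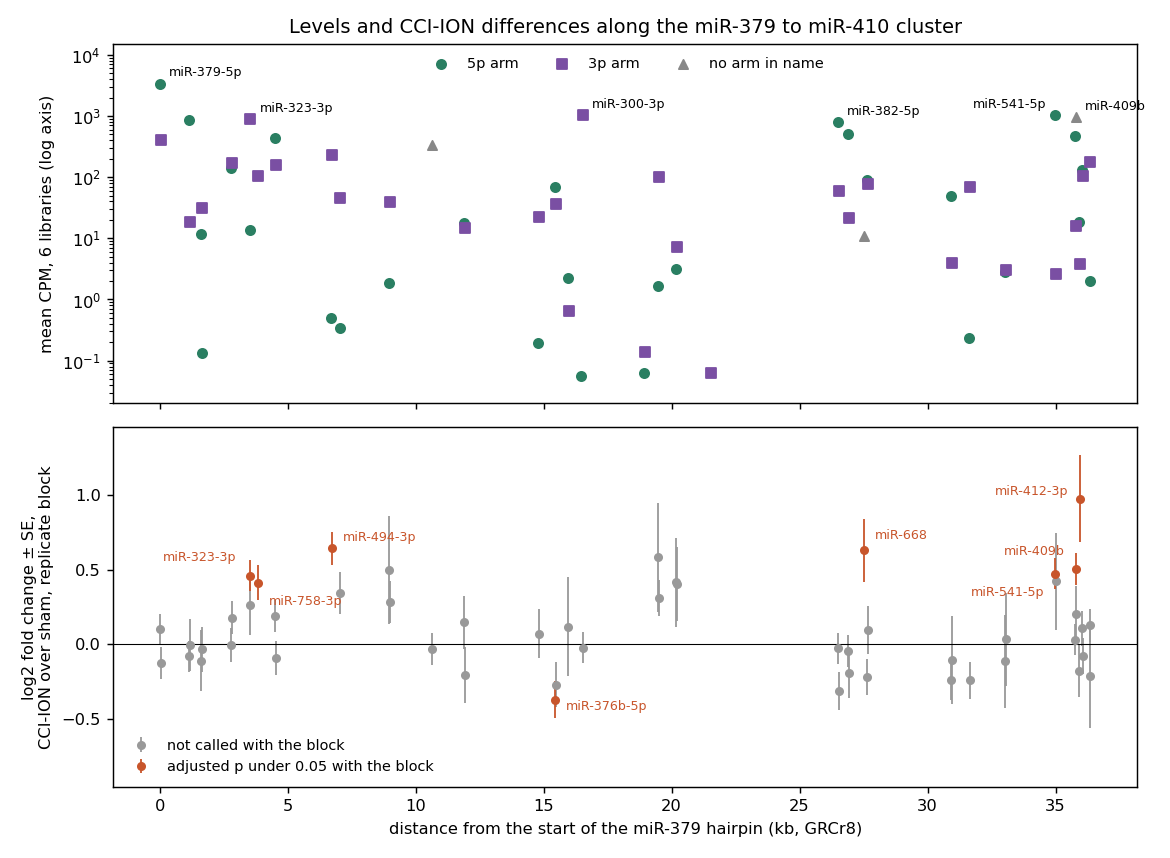
Mean level of each of the 62 members over the 6 libraries (upper panel, CPM on a log axis, by arm) and its log2 fold change of CCI-ION over sham ± SE from the edgeR fit with the replicate block (lower panel, 52 tested members), against the distance of the mature sequence from the start of the miR-379 hairpin in kb. The 8 members with an adjusted p under 0.05 in that fit are coloured; 7 are above 0 and miR-376b-5p is below 0, and they are spread from one end of the cluster to the other.

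The main comparison asked which members differ between CCI-ION and sham ganglia. On group alone, no member passed an adjusted p of 0.05 in edgeR's quasi-likelihood test, with 3 of 463 tested miRNAs (0.648%) called in the table (higher 0.216%, lower 0.432%). DESeq2 and limma-voom on group alone also called 0 members, where they called 9 (1.94%) and 3 (0.648%) of all. At an unadjusted p under 0.05, edgeR had 6 of 52 members and 46 of 463 miRNAs (9.94%), and the smallest adjusted p of a member was 0.316. The median log2 fold change of the 52 members was 0.06 with 28 above 0, and that of all tested miRNAs was 0.01. Members ranged from -0.35 to 0.98 on that scale.

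Libraries that share a number deviated from their groups together, and with the number as a block 7 members were higher and 1 was lower in CCI-ION. Over the table the block called 28 miRNAs higher (6.05%) and 26 lower (5.62%), or 11.7% in either direction. The 7 higher members are miR-323-3p, miR-758-3p, miR-494-3p, miR-668, miR-541-5p, miR-409b and miR-412-3p, and the lower one is miR-376b-5p. Of the 27 tested 3p arms 4 were called higher, of the 22 tested 5p arms 1 higher and 1 lower, and the other 2 calls were miR-409b and miR-668, which are named without an arm. With the block, DESeq2 called 5 of the 8 (miR-323-3p, miR-758-3p, miR-494-3p, miR-541-5p and miR-409b) among 44 miRNAs in all (9.5%). With the block, limma-voom called these 5 and miR-412-3p, among 39 (8.42%). All 7 higher members were above 0 in each of the 19 settings that did not scale to the RPM totals, with a smallest value of 0.34. The 7 were picked by their call in 1 of these settings, and all settings reuse the same libraries or part of them. Their shared sign is therefore not separate evidence. Calls with the block rested in part on single numbers. Without both libraries numbered 1, edgeR called 9 members beside 14.3% of all tested miRNAs, 7 of them among the 8. Without those numbered 2, it called 4 (miR-323-3p, miR-494-3p, miR-541-5p and miR-409b) beside 5.83%. None of the 8 was called without those numbered 3, where the smallest adjusted p of a member in edgeR was 0.247 and the table held 2 calls (0.432%).

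The 4 most abundant of the 7 differed by 0.46 to 0.64 on the log2 scale. miR-494-3p was at 150.4, 195 and 197 CPM in sham and at 204.9, 304 and 353 CPM in CCI-ION. All CCI-ION libraries lay above all sham libraries, and in each group the library numbered 1 was the lowest. The means were 181 ± 26.4 CPM and 287 ± 75.6 CPM (SD, n = 3 each), and the log2 fold change was 0.64 ± 0.11 (SE) with an edgeR adjusted p of 1.36e-05 with the block and 0.407 without it.

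miR-541-5p, the second most abundant member, was at 968, 813 and 846 CPM in sham and at 1376, 1114 and 1159 CPM in CCI-ION. The groups did not overlap, and here the library numbered 1 was the highest of each group. The means were 876 ± 81.9 CPM and 1216 ± 140.3 CPM (SD, n = 3 each), with a log2 fold change of 0.47 ± 0.10 and an edgeR adjusted p of 0.000503 with the block and 0.316 without it.

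miR-409b was almost level in sham at 793, 806 and 789 CPM, and was at 1119, 942 and 1359 CPM in CCI-ION. The sham libraries were nearly equal while the CCI-ION libraries were spread widely, all of them above sham. The means were 796 ± 8.94 CPM and 1140.1 ± 209.5 CPM (SD, n = 3 each), with a log2 fold change of 0.50 ± 0.11 and an edgeR adjusted p of 0.000503 with the block and 0.316 without it.

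miR-323-3p was at 695, 812 and 760.1 CPM in sham and at 919, 999 and 1217 CPM in CCI-ION. The lowest CCI-ION library was above the highest sham library. The means were 756 ± 58.6 CPM and 1045 ± 154.4 CPM (SD, n = 3 each), with a log2 fold change of 0.46 ± 0.11 and an edgeR adjusted p of 0.000927 with the block and 0.368 without it.

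miR-758-3p comes from the hairpin next to miR-323 and varied little within its groups. It was at 91.3, 88.5 and 89.5 CPM in sham and at 111, 122 and 126 CPM in CCI-ION. All 3 CCI-ION libraries were above all 3 sham libraries. The means were 89.8 ± 1.46 CPM and 119.7 ± 7.62 CPM (SD, n = 3 each), with a log2 fold change of 0.41 ± 0.12 and an edgeR adjusted p of 0.0105 with the block and 0.316 without it.

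The remaining 2 higher members were scarce. miR-412-3p was at 3.08, 2.14 and 2.31 CPM in sham and at 5.86, 4.99 and 4.04 CPM in CCI-ION, which rest on 41, 21 and 23 counts and on 68, 31 and 30 counts. The groups did not overlap, and the fold was the largest of any tested member. The means were 2.51 ± 0.502 CPM and 4.96 ± 0.913 CPM (SD, n = 3 each), with a log2 fold change of 0.97 ± 0.29 and an edgeR adjusted p of 0.0155 with the block and 0.316 without it.

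miR-668 was at 12.5, 6.01 and 7.63 CPM in sham and at 16.1, 10.1 and 13.6 CPM in CCI-ION. The groups overlapped, since CCI-ION library 2 lay below sham library 1, yet each CCI-ION library was above the sham library of its own number. The means were 8.70 ± 3.36 CPM and 13.3 ± 3.00 CPM (SD, n = 3 each), with a log2 fold change of 0.63 ± 0.21 and an edgeR adjusted p of 0.0382 with the block and 0.635 without it.

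The 1 lower member, miR-376b-5p, belongs to a family whose transcripts are known in brain as substrates of A-to-I RNA editing. It was at 66.6, 87.6 and 80.3 CPM in sham and at 45.9, 77.5 and 61.2 CPM in CCI-ION. The groups overlapped, with CCI-ION library 2 above sham library 1, and each CCI-ION library was below the sham library of its number. The means were 78.2 ± 10.7 CPM and 61.6 ± 15.8 CPM (SD, n = 3 each), with a log2 fold change of -0.37 ± 0.13 and an edgeR adjusted p of 0.0425 with the block and 0.776 without it. Its row is uncertain because of the like sequence of miR-376c-5p, and neither DESeq2 nor limma-voom with the block called it, at adjusted p of 0.127 and 0.112.

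**Figure D2:**
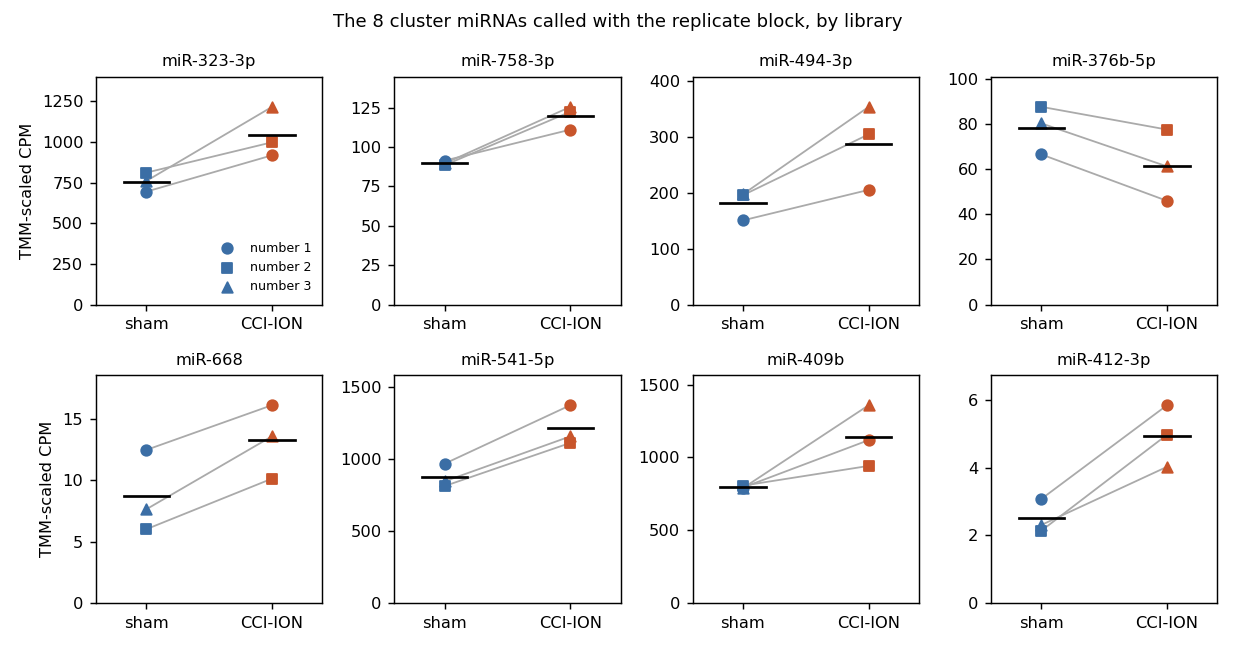
TMM-scaled CPM of the 8 members called in the edgeR fit with the replicate block, by group, with 1 point per library, a grey line between the 2 libraries of a number and a black bar at the mean of 3 libraries. In every panel all 3 lines run the same way, upward in 7 panels and downward for miR-376b-5p; the sham and CCI-ION libraries overlap for miR-668 and miR-376b-5p.

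The other 44 tested members did not pass the test with either model. Among the 12 most abundant members, miR-379-5p had a log2 fold change of 0.10 ± 0.10 with the block. miR-300-3p was at 1040.0 ± 105 CPM in sham and 1023 ± 59.7 CPM in CCI-ION. miR-411-5p, which is known to undergo A-to-I editing in brain, was at 888 ± 121 and 838 ± 88.3 CPM. For miR-134-5p, known from hippocampal neurons for its repression of Limk1, the levels were 504 ± 38.9 and 494.6 ± 91.8 CPM (SD, n = 3 each). miR-382-5p was at 801 ± 132.7 and 798 ± 210 CPM, and miR-409a-5p at 457 ± 96.4 and 467 ± 94.1 CPM. miR-329-5p was at 400.4 ± 32.3 and 458 ± 51.1 CPM, higher in 3 of 3 pairs, with a log2 fold change of 0.19 ± 0.11 and an edgeR adjusted p of 0.286 with the block. miR-379-3p was at 424 ± 57.1 and 391 ± 73.7 CPM, and miR-495, a miRNA studied for its targeting of Bdnf, at 344 ± 20.9 and 339 ± 50.1 CPM. Among the 12 most abundant members, the 9 not called differed with the block by -0.12 to 0.19 on the log2 scale.

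Counted by overlap, 9 of 52 members had every CCI-ION library above every sham library, against 6.7% of all tested miRNAs, and 1 had every CCI-ION library below, against 7.13%. The 9 are 6 of the 7 called higher with the block (all but miR-668) and miR-487b-5p, miR-487b-3p and miR-539-5p. The 1 below is miR-496-3p at 79.2, 72.7 and 69.5 CPM in sham and 64.9, 62.1 and 60.4 CPM in CCI-ION, with an edgeR adjusted p of 0.245 with the block. By number, 15 members were higher in CCI-ION in 3 of 3 pairs (28.8%, against 20.1% of all tested miRNAs) and 10 were lower in 3 of 3 pairs (19.2%, against 23.5%).

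**Figure D3:**
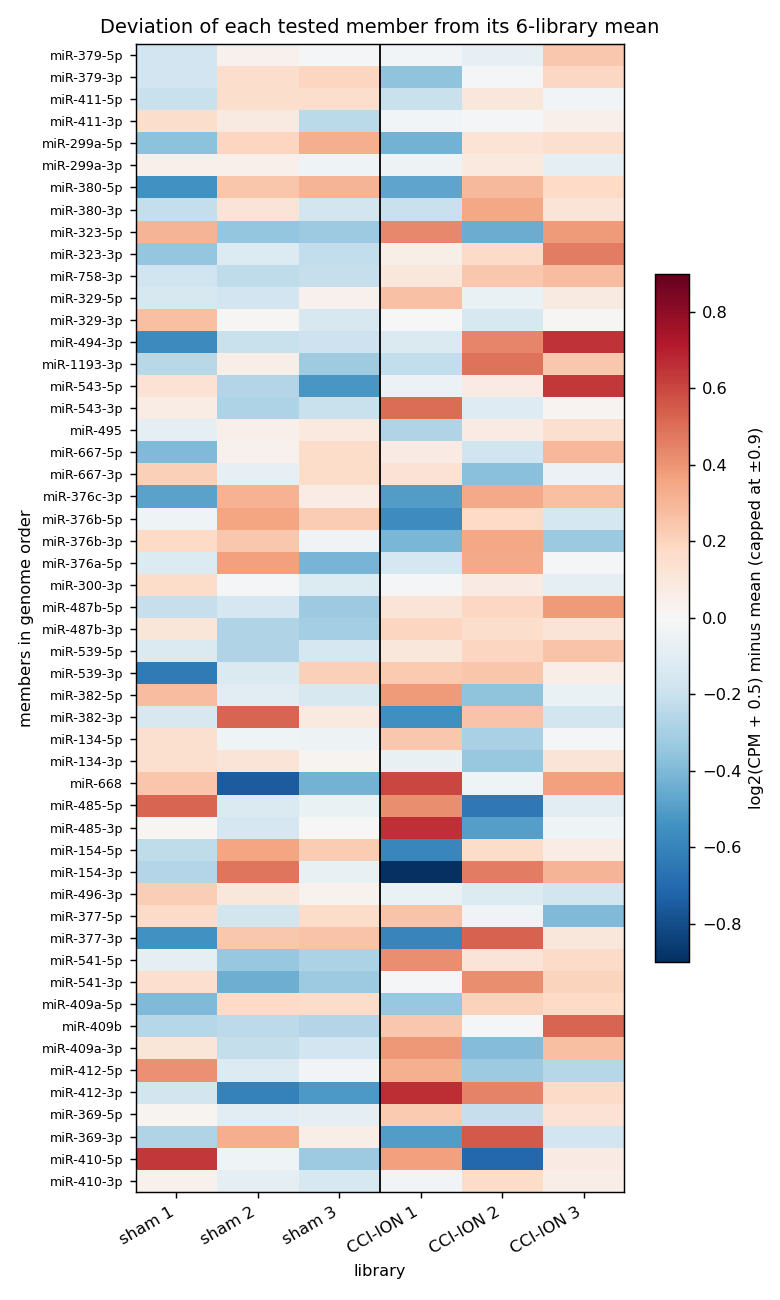
Deviation of log2(CPM + 0.5) from the mean of the 6 libraries for each of the 52 tested members, in genome order from miR-379 (top) to miR-410 (bottom), with sham libraries left of the line and CCI-ION libraries right of it; red is above and blue below the member's own mean, capped at ±0.9. Rows such as miR-323-3p, miR-758-3p and miR-541-5p change colour at the line, while rows such as miR-380-5p, miR-154-3p and miR-485-5p set both libraries numbered 1 apart from the other 4.

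For several members both libraries numbered 1 stood apart from the other 4. The mean log2 level of the 2 libraries numbered 1 minus that of the other 4 ran from -0.89 to 0.75 over the 52 members, and it was beyond 0.5 in either direction for 16 of them. The CCI-ION difference with the block was beyond 0.5 for 5. The members' contrast of the libraries numbered 1 went with their base composition. Its Pearson correlation with the percentage of G and C was 0.59 over the 52 members (Spearman 0.59) and 0.40 over all other tested miRNAs, all taken from the same 6 libraries. The CCI-ION difference with the block had a correlation of 0.24 with G and C over the members and 0.17 over the others. G and C made up 23.8% to 72.7% of a member's bases, with a median of 47.6%, and 43.5% to 66.7%, with a median of 52.4%, in the 7 members called higher. The part of base composition in these differences was not tested.

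**Figure D4:**
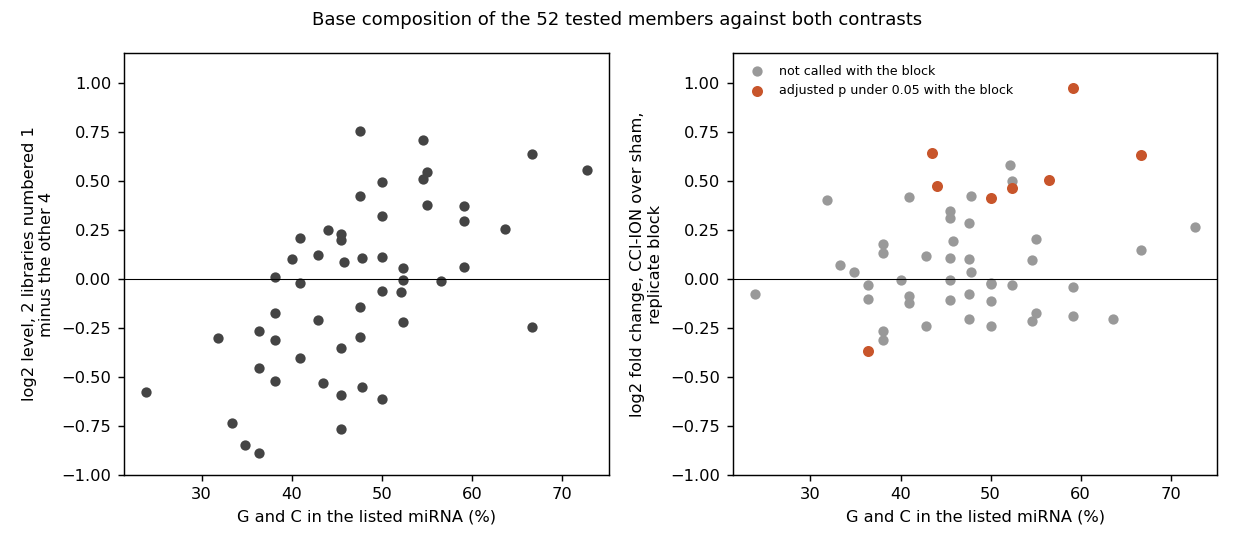
Percentage of G and C in the listed sequence (x axis) against the mean log2 level of the 2 libraries numbered 1 minus the other 4 (left) and against the log2 fold change of CCI-ION over sham with the replicate block (right), with 1 point per tested member (52). The left cloud climbs from about -0.9 to 0.75 with G and C, with a correlation of 0.59, and the right one shows a looser tilt, with a correlation of 0.24; coloured points are the 8 called members.

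The size of the differences depends on what a level is measured against. The cluster as a whole held 1.29%, 1.25% and 1.24% of miRNA counts in the sham group against 1.43%, 1.28% and 1.43% with CCI-ION. The share was higher in CCI-ION in 3 of 3 pairs, although CCI-ION library 2 lay below sham library 1, and the means were 1.26% ± 0.0300 and 1.38% ± 0.0864 (SD, n = 3 each). Without miR-379-5p the means were 0.934% and 1.03%. The deposited RPM values rest on a larger total per library, of which miRNA counts made up 52.3% to 66.6% in sham and 45.4% to 55.8% in CCI-ION, and what else it counts is not stated. Of that total the cluster held 0.777% ± 0.0870 in sham and 0.678% ± 0.109 in CCI-ION, lower in 3 of 3 pairs. With these totals as the scaling and the block, edgeR called 0 members higher and 13 lower, beside 1.3% and 32.8% of all tested miRNAs, and the median log2 fold change was -0.29 for members and -0.35 for all. The 7 members higher with TMM scaling were still above 0, from 0.07 to 0.64, but none was called, with a smallest adjusted p of 0.0856 in edgeR. With upper quartile factors and the block, edgeR called 9 members higher and 0 lower, beside 9.29% and 3.67% of all tested miRNAs. A change of scaling moves all miRNAs by nearly the same amount, so the place of the 7 above the median of all miRNAs could hardly change. Under TMM and under the RPM totals, both with the block, miR-376b-5p was called lower.

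Markers of other cell types were summed in the same way. The 13 rows of neuronal miRNAs (miR-124, miR-9a, miR-128, miR-129 and miR-138) held 1.99% to 2.19% of counts in sham and 1.62% to 1.86% in CCI-ION. The 10 rows of leukocyte miRNAs, among them miR-142 and miR-223, held 0.0272% to 0.0333% and 0.0355% to 0.0415%. Neither of these lists overlapped between the groups, while the glial, muscle, erythroid, epithelial and sensory neuron lists did. Muscle miRNAs ranged from 0.551% to 1.03% in sham and from 0.352% to 0.816% in CCI-ION. The part of these markers in the members' differences was not tested.

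Upstream of the cluster, 188.9 kb before the miR-379 hairpin, ends another group of miRNAs of the Dlk1-Dio3 region, from miR-770 to miR-370, with 27 rows and 23 tested. Its most abundant members are miR-127-3p, at 27431 ± 5447 CPM in sham and 23973 ± 2996 CPM in CCI-ION, and miR-434-5p, at 3166 ± 84.7 and 2601 ± 147 CPM (SD, n = 3 each). With the block 6 of the 23 were called higher (miR-1188-5p, miR-3072, miR-341, miR-370-3p, miR-433-3p and miR-540-3p) and 2 lower (miR-136-3p and miR-434-5p) in edgeR, beside 6.05% and 5.62% of all tested miRNAs, and without it 0. With the block, edgeR called 7 of the 23 higher and 2 lower without the libraries numbered 1, beside 14.3% of all tested miRNAs in either direction. It called 3 higher and 1 lower without those numbered 2, beside 5.83%, and 0 without those numbered 3, beside 0.432%. Under the RPM totals it called 3 higher and 6 lower, beside 1.3% and 32.8%. The median log2 fold change of the 23 was 0.04 with the block, against 0.05 for the cluster. The upstream group's share of miRNA counts was 3.55% ± 0.436 for sham and 3.16% ± 0.187 for CCI-ION, lower in 3 of 3 pairs. Without miR-127-3p it was 0.803% ± 0.00815 and 0.784% ± 0.0346, higher in CCI-ION in 1 of 3 pairs, so the lower share rested on that 1 row.

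The last comparison asked whether the 2 arms of a hairpin kept their balance. The ratio of 3p to 5p counts is taken within a library, so library scaling drops out of it. Both arms are listed for 28 cluster hairpins, and 21 of these had a mean of at least 10 counts in each arm, among 132 hairpins of the table. Arm use varied widely within the cluster. Of the 21, counts favoured the 5p arm in 13 hairpins and the 3p arm in 8, and 9 were within 4-fold of balance. These numbers describe the 21 alone, since the minimum in each arm leaves out hairpins with a scarce arm. Of those left out, miR-300, miR-494, miR-496, miR-1193 and miR-376c had far more 3p than 5p counts. miR-376a had more 5p counts, and miR-381 had few in both arms. Among the 21, miR-541 was the most 5p-sided with a 402-fold excess, then miR-411 with 46.0-fold and miR-409a with 29.2-fold. The last 2 ratios are uncertain, since miR-411-3p and miR-409a-3p are listed with 20 bases and such short rows were scarce across the table. For miR-409a-3p the split of reads with miR-409b is uncertain as well. Among the same 21, miR-410 was the most 3p-sided with 91.9-fold, then miR-323 with 67.3-fold and miR-487b with 58.1-fold. The abundant hairpins miR-379, miR-382 and miR-329 lay between these, with 8.33-fold, 13.7-fold and 2.72-fold more 5p than 3p counts. Some hairpins outside the 21 were more one-sided than miR-410. Mean levels were 1031 CPM for miR-300-3p and 0.0561 CPM for miR-300-5p, and 234 CPM for miR-494-3p and 0.491 CPM for miR-494-5p. As given above, the row miR-300-3p is uncertain because of its likeness to miR-381-3p.

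No arm balance passed an adjusted p of 0.05 in limma, with or without the block, in the cluster or among all 132 hairpins (0.0%). At an unadjusted p under 0.05 limma had 3 of the 132 without the block (2.27%) and 12 with it, and 1 cluster hairpin in each case. That 1 is miR-412, which had the smallest p of all 132. Its hairpin lies at chr6:134579337-134579406 (GRCr8, plus strand, from RefSeq), with both mature arms in capitals. It is shown because it carries the largest arm difference among the cluster hairpins tested.
Mir412: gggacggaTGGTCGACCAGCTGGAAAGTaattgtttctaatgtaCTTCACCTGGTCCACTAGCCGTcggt

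The log2 ratio of 3p to 5p counts of miR-412 was -2.96, -2.93 and -2.92 in sham and -1.94, -1.51 and -1.88 in CCI-ION. In shares, the 3p arm made up 11.3%, 11.4% and 11.5% of the hairpin's counts in sham and 20.5%, 25.8% and 21.1% in CCI-ION. The sham libraries were nearly equal and all CCI-ION libraries were higher. The difference was 1.16 ± 0.25 on the log2 scale (SE), with a limma adjusted p of 0.297 without the block and 0.207 with it. It stayed between 1.02 and 1.24 when any 1 library was left out. The 5p arm, at 19.5 ± 4.09 CPM in sham and 17.4 ± 4.62 CPM in CCI-ION (SD, n = 3 each), overlapped between the groups. This arm is listed with 20 bases, and such short rows were scarce across the table. The ratios and shares of miR-412 are therefore uncertain, as for miR-411 and miR-409a. The other 20 cluster hairpins differed by -0.35 to 0.34. Groups did not overlap in 2 of the 21 (miR-412 and miR-485), beside 6.82% of the 132.

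**Figure D5:**
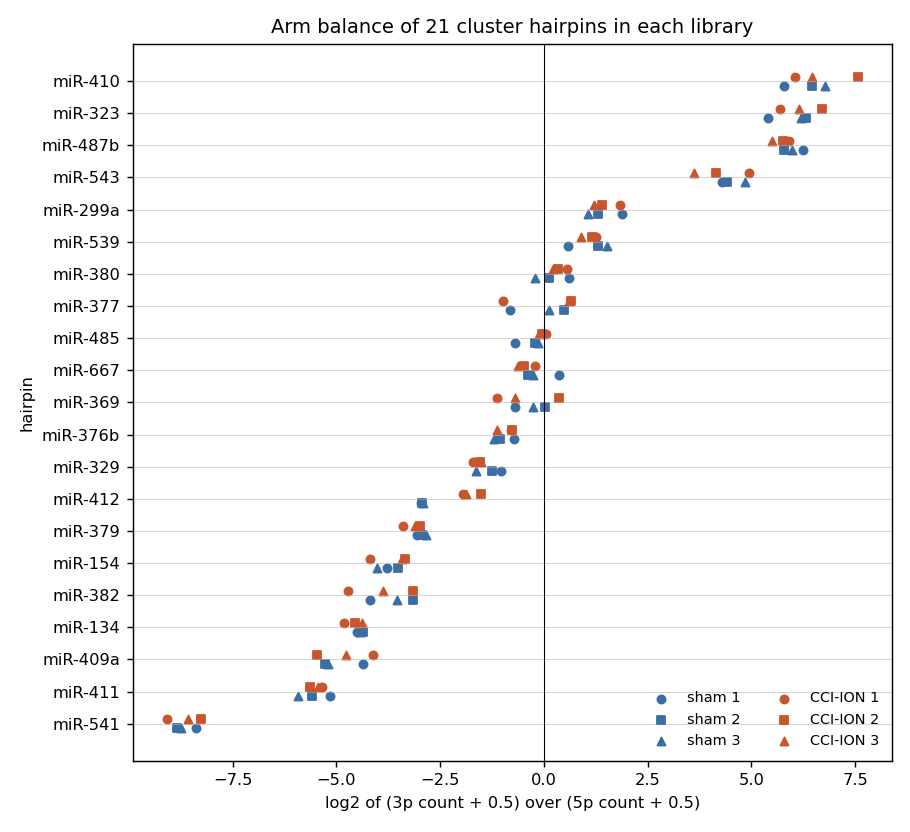
Log2 ratio of 3p to 5p counts (0.5 added to each) in the 6 libraries for the 21 cluster hairpins with enough counts in both arms, ordered from the most 3p-sided (top) to the most 5p-sided (bottom); blue points are sham and orange points CCI-ION, with a shape for each library number. For most hairpins the colours are mixed; for miR-412 the 3 sham points coincide near -2.9 and the 3 CCI-ION points lie to their right.

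The row miR-409b stands apart from the arms, since RefSeq places it on the strand opposite to the miR-409a hairpin. Over 20 bases miR-409b is the reverse complement of miR-409a-3p. The hairpin lies at chr6:134579185-134579261 (GRCr8, plus strand, from RefSeq), and the capitals mark miR-409a-5p, then miR-409a-3p, to be set beside miR-409b as printed above.
Mir409: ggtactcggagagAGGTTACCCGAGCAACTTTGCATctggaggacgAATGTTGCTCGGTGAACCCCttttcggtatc

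miR-409b had 47.1 to 80.2 times the counts of miR-409a-3p in a library, which was at 14.6 ± 1.91 CPM in sham and 17.0 ± 4.66 CPM in CCI-ION (SD, n = 3 each). Against miR-409a-5p, the ratio of miR-409b counts was 2.29, 1.56 and 1.55 in sham and 3.12, 1.79 and 2.63 in CCI-ION, with CCI-ION library 2 below sham library 1. Use of strand in the counting is a point not given in the sources used here, so the split of reads between these rows is uncertain. Rows outside the cluster also lie opposite to members, and the 3 with the most counts were each scarcer than their member in every library. miR-3578, opposite to miR-369-5p, had 249 to 679 counts against 707 to 1793 for the member. miR-3592, opposite to miR-382-3p, had 74 to 190 counts, and miR-3576, opposite to miR-539-5p, had 3 to 12 against 23 to 40.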

How the data were processed

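Small RNA libraries of 3 sham and 3 CCI-ION trigeminal ganglia were analysed. Per the submitters' processing notes, cutadapt 1.14, Bowtie 1.1.1 and the build rn6 were used. Counter and annotation were not given in the sources used here. Total RNA and a TruSeq RNA kit are named, per the labels' protocols. The authors deposited raw counts for 650 miRNAs with their sequences, and RPM values for each library. Whole reads could be recovered from 100% of the deposited RPM values within 0.01 read, so the count test runs on the deposited counts, and the RPM totals (13793797 to 24259518) serve as an alternative scaling.

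Counts of the whole table were tested with edgeR 4.0.16 in R 4.3.3 (robust quasi-likelihood F test, TMM factors, filterByExpr, Benjamini-Hochberg adjusted p under 0.05 over 463 miRNAs). Group alone was the main model. Levels are TMM-scaled CPM, and positive log2 fold changes mean higher in CCI-ION. Log2 ratios of 3p to 5p counts (0.5 added to each) were tested with limma 3.58.1 (trend, robust). DESeq2 1.42.0, limma-voom, other scalings, no filter, and leaving out libraries were alternatives.

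Both groups carry library numbers 1 to 3 in their titles. Deviations from the group mean correlated at 0.664, 0.591 and 0.457 for equal numbers and from -0.614 to 0.167 for the other 6 combinations. Within a group these deviations cancel out for each miRNA, so part of the contrast between equal and unequal numbers is built in. The numbers were taken to pair the libraries, on this hint from the data alone. The labels do not say what a number stands for. With the block only 2 residual degrees of freedom are left, and the fit borrows much of its spread from other miRNAs (prior degrees of freedom, median, 54.5 with the block and 3.3 without).

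Seeds are bases 2 to 8. Rows that differ at no more than 2 bases over at least 18, with starts shifted by no more than 2, were called uncertain. Named members are those called in either fit, the 12 most abundant, the 5 with the smallest p, the arm extremes and the seed groups; miR-487b, miR-539-5p, miR-496-3p, the opposite-strand rows and the letters GGTCCAC were added after their values were seen. The members and lists were chosen with earlier results of these data known. Floors cover counting error only, since no molecular identifiers are recorded. The scripts were tested on simulated data.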

Additional observations from a re-analysis of the deposited data

How the results depend on the processing

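On group alone, edgeR called 3 miRNAs, DESeq2 9, the fit without the count filter 6 and the fit scaled to the RPM totals 6; leaving out 1 library gave 1 to 7, with 7 without CCI-ION replicate 1, and none of these fits called a member. With the replicate block, which pairs the libraries by number, edgeR called 54 miRNAs and 8 members, DESeq2 44 and 5, limma-voom 39 and 6, upper quartile factors 60 and 9, and the RPM totals 158 and 13. The block without number 1 called 66 miRNAs and 9 members, without number 2 it called 27 and 4, and without number 3 it called 2 and 0. By direction, the members called with the block split 7 higher and 1 lower under TMM, 9 and 0 under upper quartile factors and 0 and 13 under the RPM totals; the median over all miRNAs on group alone moved from 0.01 to 0.09 and -0.34. The members' median log2 fold change of 0.0576 became 0.146 and, with the block, 0.143 under upper quartile factors, and -0.309 and, with the block, -0.294 under the RPM totals; it ranged from 0.0383 to 0.119 with 1 library left out. The share of miRNA counts was 0.121 percentage points higher in CCI-ION, from 0.0951 to 0.171 with 1 library left out, and was -0.099 against the RPM totals. Arm balance gave 0 calls in every setting run: the block, a mean of 50 counts per arm, 2 added to each count, and each library left out. Of the alternative values of the 17 named members, 40 passed the threshold only in the alternative. Another 6 changed sign by more than their error without passing it, and 294 did neither. All 181 alternative values of the single hairpins' arm balances stayed uncalled, though some differences changed sign when 1 library was left out. Under TMM the block changed the call of the 8 members and of no other member. The cause of these moves was not tested. Depth limits miR-412-3p and miR-668 and the 10 members left untested.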
